A study of Mus musculus with 16 samples.

Results

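The 33 genes described here encode parts of the primary cilium and of intraflagellar transport, the movement that builds it, and they were taken by gene symbol from the 53379 genes in the count files. They comprise 12 subunits of the transport complex IFT-B, 6 subunits of the complex IFT-A, 7 genes of the BBSome and its adaptor, 2 genes of the chaperonin that assembles the BBSome, 5 genes of the transition zone and 1 gene of the ciliary rootlet. The set was drawn up after a lower level of Wdr19, an IFT-A subunit, had been seen in astrocytes without Eed, to ask whether the other genes shared it. The difference between genotypes in astrocytes is therefore a description below: counts of calls over all genes are given as background, and nothing is read from them about the set.

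The primary cilium is a single antenna that grows from the mother centriole of most cells, neurons and astrocytes among them, and receives Hedgehog and other signals. IFT-B complexes carry cargo to the tip with kinesin-2, and IFT-A complexes return it to the base with dynein-2. The BBSome carries membrane proteins out of the cilium, the transition zone acts as the gate at its base, and transcription factors of the RFX family drive many of these genes.

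RNA was measured by sequencing of cells sorted from the neocortex of mice at postnatal day 4, whose strain the labels give as CD1 and the study's methods as a mixed C57BL/6 and CD1 background. All groups carried the MADM cassettes on chromosome 7 (MADM7-GT/TG), Emx1-cre, which drives recombination in the progenitors of cortical projection neurons and glia, and XGFAP-lacZ, a transgene that expresses lacZ from the human GFAP promoter. Only green (GFP+) cells were taken, and by the direction of the crosses their chromosome 7 pair was paternal in both genotypes. None of the 33 genes (0) lies on that chromosome. In control-MADM mice, wild type for Eed, the green cells were Eed+/+. In Eed-MADM mice, which were heterozygous for Eed in most cells, the green cells were Eed-/- and lacked the Polycomb repressive complex 2 subunit EED. GFP+/lacZ+ cells were collected as astrocytes (5 Eed+/+ and 5 Eed-/- libraries) and GFP+/lacZ- cells as neurons (2 Eed+/+ and 3 Eed-/- libraries), each library from 1 animal. These are bulk libraries, so fewer cells of a type and less RNA per cell cannot be told apart.

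The libraries were uneven, and this bears on every result below. Gene counts totalled 211736 in the smallest and 3178529 in the largest of the 15 libraries with a group. Of these, 10 had at least 60% and at least 1000000 uniquely aligned reads (called within the limits here): 4 of 5 Eed+/+ astrocyte, 2 of 5 Eed-/- astrocyte, 1 of 2 Eed+/+ neuron and 3 of 3 Eed-/- neuron libraries. The 3 Eed-/- astrocyte libraries outside the limits (replicates 1, 3 and 4) had reads of only 4 to 9 of the 33 genes. The study set libraries aside without naming them, so every library with a group was kept here and the main results are given with and without those outside the limits. Levels are counts scaled to a library total of 1000000 over genes (CPM). Reads of Eed were 88, 204, 2, 85 and 41 in Eed+/+ astrocytes, 0, 26, 0, 0 and 14 in Eed-/- astrocytes, 121 and 26 in Eed+/+ neurons, and 21, 74 and 53 in Eed-/- neurons. The counts do not separate the deleted part of Eed from the rest of the gene, so they are no full check of genotype. The sum of 15 astrocyte markers overlapped between the sorted types, at 3506 to 26367 CPM in Eed-/- astrocytes, 4314 to 25404 CPM in Eed+/+ astrocytes and 7871 to 22599 CPM in neurons. The sum of 15 neuron markers overlapped too (36.5 to 4686 CPM in astrocytes and 1266 to 3230 CPM in neurons), so the 2 names stand for the sort gates. The sum of 10 oligodendrocyte lineage markers was 209 to 6333 CPM in astrocytes and 1435 to 4549 CPM in neurons. It lay above the neuron marker sum in every neuron library but Eed-/- replicate 3 (3021 against 3230 CPM). Blood and microglia genes were high in some of the libraries outside the limits: 5 erythroid markers summed to 8829 CPM and 10 microglia markers to 15781 CPM in Eed-/- astrocyte replicate 1, erythroid markers to 11925 CPM in replicate 4 and microglia markers to 2875 CPM in replicate 3. In Eed+/+ astrocytes these sums reached at most 5.24 and 415 CPM, and their part in the results was not tested.

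Wdr19 was low in every Eed-/- astrocyte library. Wdr19 (chromosome 5, 65199696 to 65260415, plus strand, GRCm38) encodes IFT144, a core subunit of IFT-A. Its reads numbered 34, 62, 27, 19 and 88 in Eed+/+ astrocytes, which is 16.2, 19.5, 56.5, 7.90 and 54.3 CPM. In Eed-/- astrocytes they numbered 0, 2, 0, 0 and 1, which is 0, 1.06, 0, 0 and 1.01 CPM. The groups did not overlap, and all 3 Eed-/- reads came from the 2 libraries within the limits. In the other 3 libraries a count of 0 allows up to 7.83, 7.44 and 14.2 CPM (3 counts of the total, counting error only), and the last of these lies above the lowest Eed+/+ value. Per gene read, pooled over libraries, Wdr19 was 30.4 times as frequent in Eed+/+ as in Eed-/- astrocytes, and 21.0 times in the libraries within the limits. These ratios describe the gap on which the set was chosen, and they carry no measure of the spread between animals. The fitted log2 fold change was -5.47 ± 1.97 (SE), and -4.45 ± 1.49 within the limits. Divided also by exon length in kilobases (RPKM), the Wdr19 level was 2.74 ± 2.02 (SD, n = 5) in Eed+/+ astrocytes, 0.0366 ± 0.0501 (n = 5) in Eed-/- astrocytes, 1.31 ± 0.393 (n = 2) in Eed+/+ neurons and 0.897 ± 0.470 (n = 3) in Eed-/- neurons. The other 3 groups overlapped one another. The Eed-/- astrocyte libraries within the limits lay below all of them, but the limits that a count of 0 allows in the other 3 libraries lie above the lowest neuron value (4.37 CPM).

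The other 5 IFT-A subunits were read at more than 3 reads in at least 1 of the 2 Eed-/- astrocyte libraries within the limits, unlike Wdr19. Ift43, a small subunit, had 58.2, 45.3, 121, 38.3 and 36.4 CPM in Eed+/+ astrocytes and 0, 64.5, 0, 0 and 24.1 CPM in Eed-/- astrocytes. The 3 values of 0 were those of replicates 1, 3 and 4, and the mean of the other 2 was 0.996 times the Eed+/+ mean within the limits. Ift122, a core subunit, had 8.10, 19.5, 69.1, 32.8 and 63.5 CPM in Eed+/+ astrocytes and 271, 0, 79.3, 0 and 31.2 CPM in Eed-/- astrocytes. Its highest value in any library and 2 values of 0 thus fell in the same group.

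Ift140, another core subunit, had 36.2, 4.09, 0, 27.0 and 21.0 CPM in Eed+/+ and 0, 8.99, 0, 0 and 51.3 CPM in Eed-/- astrocytes. Wdr35 (IFT121), a peripheral subunit, had 25.7, 4.40, 29.3, 13.3 and 0 CPM in Eed+/+ and 0, 4.76, 0, 0 and 41.2 CPM in Eed-/- astrocytes. For both genes Eed-/- replicate 5 held the highest astrocyte value, and within the limits the ratio of means was 1.37 for Ift140 and 2.12 for Wdr35. Ttc21b (IFT139), also peripheral, had 7.63, 3.46, 6.28, 5.82 and 0 CPM in Eed+/+ and 2.61, 1.06, 0, 9.45 and 7.04 CPM in Eed-/- astrocytes. It was the IFT-A gene read in most Eed-/- astrocyte libraries (4 of 5), at few reads in each (1 to 7).

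**Figure D1:**
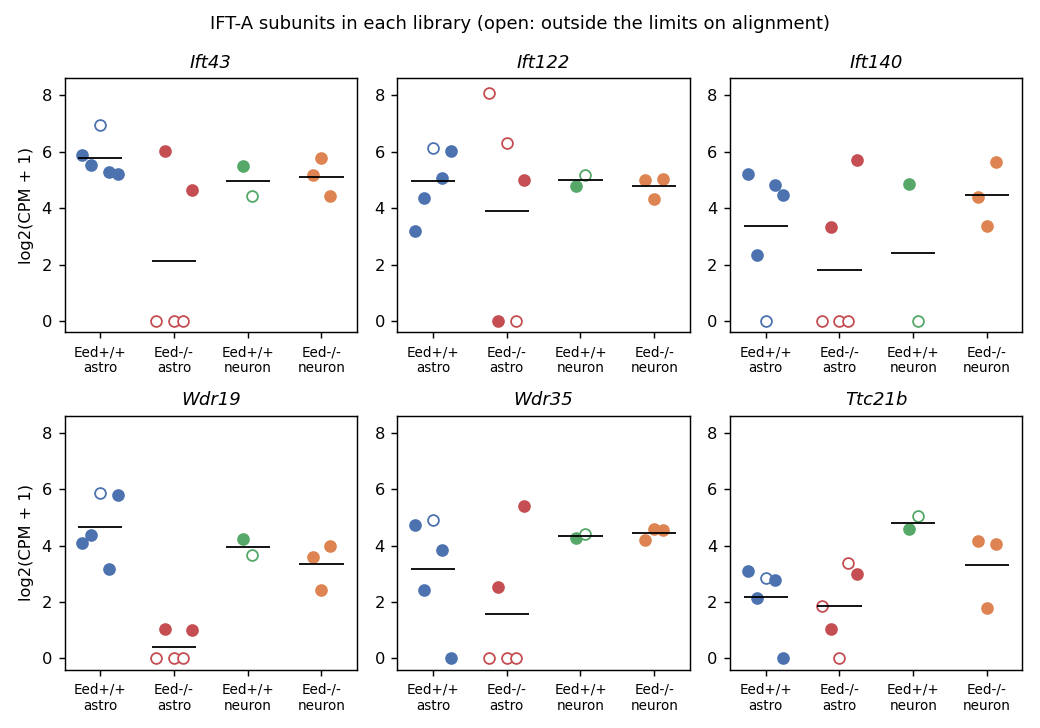
Level of each IFT-A subunit in each library, as log2(CPM + 1) on the vertical axis, by group; filled points are libraries within the limits on alignment, open points those outside, and bars are means of the log2 values. For Wdr19 both filled Eed-/- astrocyte points lie near 1, below all 5 Eed+/+ astrocyte points, whereas for the other subunits at least 1 filled Eed-/- point lies within the Eed+/+ range.

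The start regions of these genes were compared for the motif bound by RFX factors, since a shared motif is one property the choice of genes did not use. In the RefSeq table of promoter windows (GRCm38.p6, 300 bases around each start), 29 of the 33 genes were matched, and Ift122, Ift80, Ift81 and Tmem67 were not. The paired motif GTTNCC, 0 to 3 bases, then GGNAAC, a palindrome that reads the same on both strands, was found for Bbs7, Ift57 and Mks1 (3 of 29, 10.3%) and for 0.936% of the 27025 genes in the table. The single site GTTGCC on either strand, which can be one arm of the paired motif, was found for 12 of 29 (41.4%: Bbs1, Bbs5, Bbs7, Crocc, Ift140, Ift172, Ift27, Ift57, Ift88, Mks1, Traf3ip1 and Wdr35) and for 14.1% of the genes in the table. The windows of Wdr19 (chr5:65199446-65199745, plus strand), which held neither, of its fellow subunit Wdr35 (chr12:8973751-8974050, plus strand) and of Ift57 (chr16:49699044-49699343, plus strand) are shown 5′ to 3′, as examples of no match, a single site and the paired motif, with the matches in capitals.
Wdr19: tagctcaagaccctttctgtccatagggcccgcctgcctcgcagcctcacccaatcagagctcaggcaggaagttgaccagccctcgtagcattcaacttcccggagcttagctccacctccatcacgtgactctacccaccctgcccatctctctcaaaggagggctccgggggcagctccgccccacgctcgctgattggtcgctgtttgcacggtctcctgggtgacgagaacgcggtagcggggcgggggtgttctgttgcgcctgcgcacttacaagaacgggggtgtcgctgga
Wdr35: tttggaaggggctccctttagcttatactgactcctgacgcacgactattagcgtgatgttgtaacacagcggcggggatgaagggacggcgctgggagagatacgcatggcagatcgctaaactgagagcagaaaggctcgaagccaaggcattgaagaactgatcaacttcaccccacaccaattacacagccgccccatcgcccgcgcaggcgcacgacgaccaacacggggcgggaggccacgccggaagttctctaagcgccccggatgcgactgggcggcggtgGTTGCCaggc
Ift57: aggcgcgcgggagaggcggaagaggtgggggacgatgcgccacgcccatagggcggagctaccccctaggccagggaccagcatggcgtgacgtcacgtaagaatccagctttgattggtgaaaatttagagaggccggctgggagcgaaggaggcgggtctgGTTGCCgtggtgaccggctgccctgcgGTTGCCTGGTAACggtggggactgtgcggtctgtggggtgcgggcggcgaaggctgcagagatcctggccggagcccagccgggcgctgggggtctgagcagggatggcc
Both single sites of Ift57 are marked, and the second is an arm of its paired motif. Genes with and without a match lay on either side of a ratio of 1 between genotypes in the astrocyte libraries within the limits. Of the genes with the paired motif, Mks1 had a ratio of 0.719, Bbs7 1.19 and Ift57 1.59. Among those with no match, Wdr19 had 0.0422, Bbs2 0.260, Bbs4 1.26 and Cep290 1.30. Pairs 1 base off this spelling, as in the window of Bbs4, were not counted. A match is a run of letters, not a bound site, and the lack of one in this window says nothing of the factor.

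IFT-B genes, which build the anterograde train, held the 3 most read genes of the set, and 9 of the 12 had reads in both Eed-/- astrocyte libraries within the limits (Ift80, Ift81 and Ift88 had 0 in replicate 2). Ift46, a core subunit and the gene of the set with the most reads (1788), had 110, 104, 0, 132 and 13.6 CPM in Eed+/+ astrocytes and 0, 59.2, 0, 0 and 79.5 CPM in Eed-/- astrocytes. The Eed-/- values above 0 lay inside the Eed+/+ range, and the groups overlapped. Per exon length, the highest IFT-B levels in Eed+/+ astrocytes were those of Ift20, which also acts at the Golgi (48.7 RPKM), Ift27, a small GTPase (36.7 RPKM), and Ift74, part of the tubulin-binding module (21.2 RPKM). The lowest IFT-B level there was 0.615 RPKM for Ift88, a core subunit whose hypomorphic mouse mutant has short cilia. Only Ift20 had reads in all 5 Eed-/- astrocyte libraries.

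A few IFT-B genes were high in 1 library outside the limits. In Eed-/- astrocyte replicate 1, Ift88 had 153 reads, Ift52 133 and Ift22 76, while 8 other IFT-B genes had 0 and Ift20 had 3. Ift88 had 22, 0, 0, 9 and 0 reads in Eed+/+ astrocytes and 153, 0, 0, 0 and 22 in Eed-/- astrocytes. Together with Ift122 these genes took 98.7% of the reads of the set in that library. Ift80 was the opposite case, with 72, 16, 0, 21 and 7 reads in Eed+/+ and 0, 0, 0, 0 and 3 in Eed-/- astrocytes, and 0.115 times the Eed+/+ mean CPM within the limits. It was named after its values were seen.

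BBSome genes lay on either side of a ratio of 1 within the limits, while with all 10 astrocyte libraries the 4 of 7 that passed the filter on low counts were all below 0 (median log2 fold change -0.71, against -0.54 for all genes). Arl6, the small GTPase that recruits the BBSome to membranes and the gene of this block with the most reads, had 44.8, 50.0, 109, 70.7 and 36.4 CPM in Eed+/+ astrocytes and 0, 25.4, 0, 0 and 25.1 CPM in Eed-/- astrocytes. It was, beside Wdr19, the only one of the 20 genes tested in astrocytes whose Eed-/- values all lay below the Eed+/+ values (2 of 20), against 1.88% of all genes tested, and none of the 20 (0) lay above, against 0.0112%. The set was chosen on this contrast, so nothing is read from these counts. Within the limits the mean Arl6 level was 0.501 times that of Eed+/+ astrocytes, that of Bbs2, a subunit of the core, 0.260 times, and that of Bbs4, a subunit that links to centriolar satellites, 1.26 times. With all libraries, mean Bbs4 was 32.8 ± 25.1 CPM (SD, n = 5) in Eed+/+ and 15.5 ± 22.1 CPM (n = 5) in Eed-/- astrocytes.

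The remaining blocks differed in how widely they were read, from Rpgrip1 (5 of 15 libraries) to Cep290 (15 of 15), both of the transition zone. Bbs12, which helps assemble the BBSome, had 6, 0, 0, 0 and 51 reads in Eed+/+ and 0, 0, 0, 0 and 3 in Eed-/- astrocytes. Cep290, which links membrane and axoneme at the transition zone, had 16.2, 10.4, 2.09, 39.9 and 30.8 CPM in Eed+/+ and 5.22, 10.1, 7.44, 14.2 and 53.3 CPM in Eed-/- astrocytes. The 2 genotypes overlapped. Crocc, which encodes rootletin, had 4, 0, 0, 2 and 0 reads in Eed+/+ and 0, 0, 19, 0 and 17 in Eed-/- astrocytes.

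Rpgrip1, a transition zone scaffold, was the gene with the largest rise within the limits and was named after its values were seen. Its reads numbered 1, 0, 0, 0 and 0 in Eed+/+ astrocytes, 0, 106, 0, 0 and 9 in Eed-/- astrocytes, 2 and 0 in Eed+/+ neurons and 0, 1 and 0 in Eed-/- neurons. Nearly all of them thus came from Eed-/- astrocyte replicate 2. Exons of Rpgrip1 share 8.70% of their bases with Supt16 on the opposite strand, and reads over both genes were set aside as ambiguous and counted for neither.

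**Figure D2:**
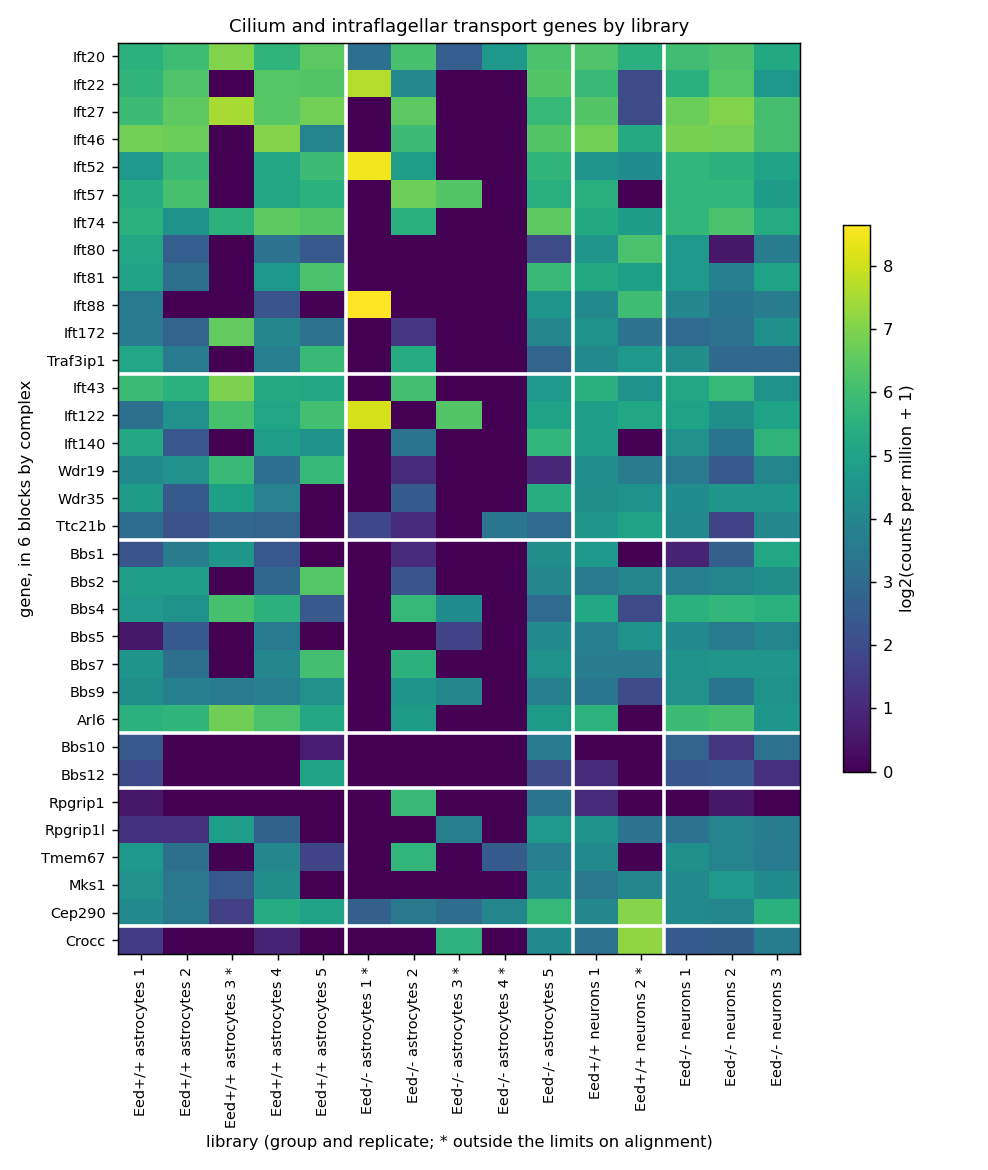
Heat map of all 33 genes (rows, in 6 blocks by complex from IFT-B at the top to the rootlet at the bottom) in the 15 libraries (columns), coloured by log2(CPM + 1). The 3 Eed-/- astrocyte columns marked as outside the limits hold reads of 4 to 9 genes, and in the other 2 such columns Wdr19 is at 1.06 and 1.01 CPM.

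Over the whole set, ratios between genotypes in the astrocyte libraries within the limits were spread around 1, with Wdr19 at the low end. For all 33 genes the ratio of mean CPM, Eed-/- over Eed+/+, had a median of 1.08, with 16 genes under 1 and 17 over 1. Over the 13190 genes with a ratio the median was 0.979. Wdr19 had the lowest ratio of the set, 0.0422, and was the only 1 of the 33 under 0.1, where 6.83% of all genes lay. The next were Ift80 (0.115), Bbs12 (0.176) and Bbs2 (0.260), and 21 genes (63.6%) lay between 0.5 and 2, as did 67.7% of all genes. The Eed-/- side of each ratio rests on 2 libraries.

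With all 10 astrocyte libraries, 20 of the 33 genes passed the filter on low counts, and their median log2 fold change was -0.91 against -0.54 for all 8956 genes tested. Of the 20, 16 were below 0, as were 71.4% of all genes tested. As background, edgeR's quasi-likelihood test called 0 genes of the whole table at an adjusted p under 0.05 (0%, the set included), with 108 (1.21%) at an unadjusted p under 0.05, DESeq2 called 1 and limma 0. DESeq2 within the limits, an alternative added after the data were seen, called 14 genes (0.116%), 1 of them (Rpgrip1) of the set. Within the limits, 30 genes were tested and their median was 0.11 against -0.02 for all genes, with 14 below and 16 above 0, where 51.1% of all genes lay below. The median of the set minus that of all genes was thus -0.37 with all libraries and 0.13 within the limits, and with all libraries but no filter on low counts it was 0.16, so the position of the set turned with these choices. Wdr19, on whose fall the set was chosen, was low in each.

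**Figure D3:**
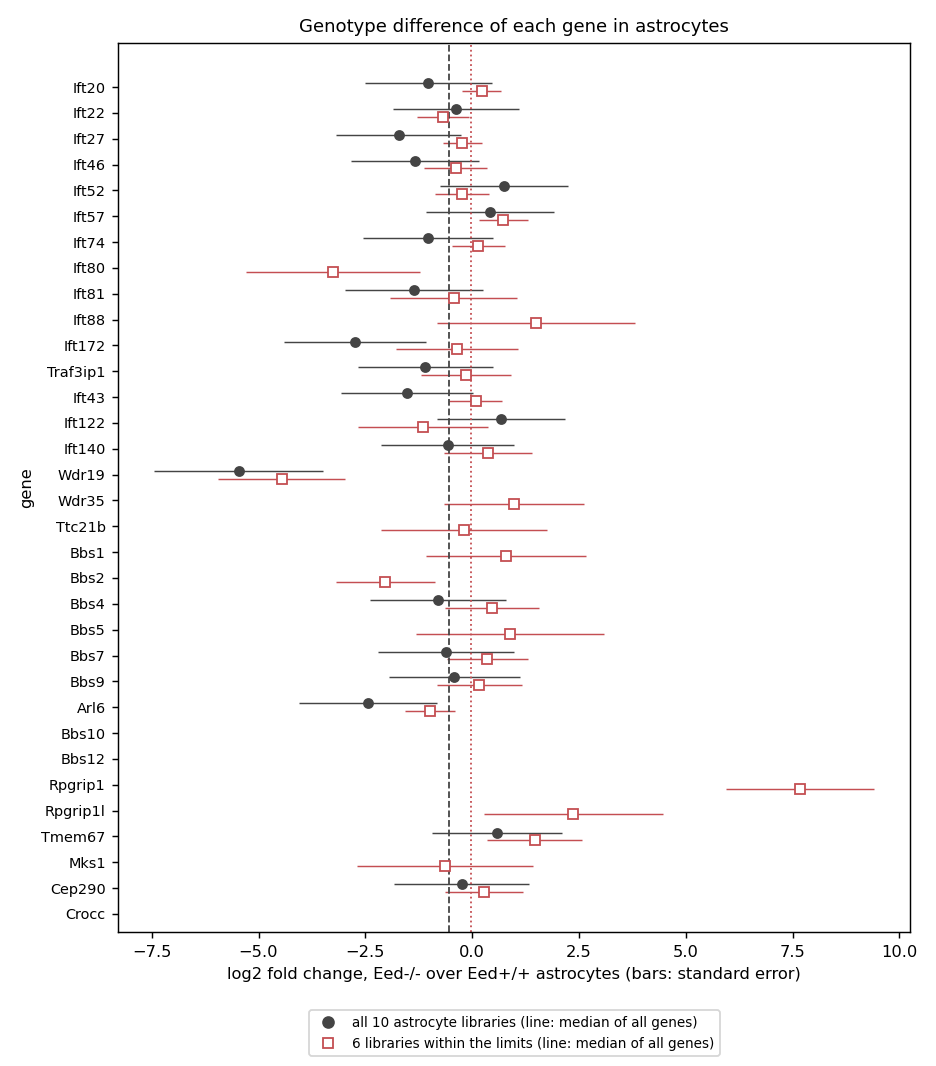
Log2 fold change of each gene between Eed-/- and Eed+/+ astrocytes, with its standard error, over all 10 libraries (filled circles, 20 genes) and over the 6 within the limits (open squares, 30 genes). Dashed and dotted lines mark the medians of all genes (-0.54 and -0.02), and Wdr19 is the leftmost gene by both, at -5.47 and -4.45.

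The number of these genes that were read at all was lowest in the 3 Eed-/- astrocyte libraries outside the limits. In Eed+/+ astrocytes 33, 28, 16, 30 and 24 of the 33 had at least 1 read, a mean of 26.2 ± 6.57 (SD, n = 5). In Eed-/- astrocytes 7, 23, 9, 4 and 33 had a read, a mean of 15.2 ± 12.3 (n = 5). The Eed-/- libraries within the limits, with 23 and 33, lay in the Eed+/+ range, and every gene of the set was read in replicate 5, Wdr19 with 1 read. Neuron libraries held 32 and 25 (Eed+/+) and 32, 33 and 32 (Eed-/-).

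At equal depth the order of the group means was the same. Reduced to the smallest library total (211736 counts), the calculated numbers were 23.0 ± 5.15 (SD, n = 5) in Eed+/+ and 13.5 ± 10.9 (n = 5) in Eed-/- astrocytes, 26.5 ± 4.51 (n = 2) in Eed+/+ neurons and 29.1 ± 1.51 (n = 3) in Eed-/- neurons. In the same 3 poorly aligned Eed-/- astrocyte libraries all genes tested were also read less often: 28.0%, 47.1% and 17.2% of 13367 genes had a read, against 21.2%, 27.3% and 12.1% of the 33.

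**Figure D4:**
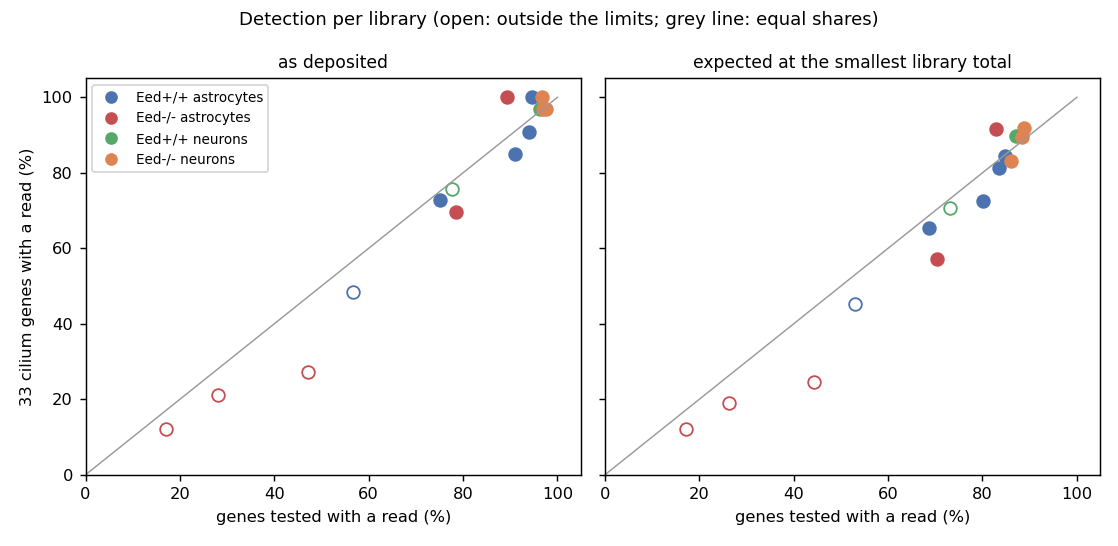
Share of the 33 genes with at least 1 read against the share of all 13367 genes tested, in each library, as deposited (left) and calculated for the smallest library total (right). Open points are libraries outside the limits, and the 3 open Eed-/- astrocyte points lie lowest on both axes in both panels.

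In neurons, a comparison the choice of genes did not use, no gene of the set was called between genotypes. Of the 33, 30 were tested (Bbs10, Bbs12 and Rpgrip1 were not), 0 were called at an adjusted p under 0.05 by edgeR's quasi-likelihood test, as for all 11862 genes (0 called, 0%), and 1 had an unadjusted p under 0.05, against 7.27% of all genes. DESeq2 called 0 of the 30 and 26 of all genes, and limma 0 of both. Wdr19 had 17.9 and 11.6 CPM in Eed+/+ and 11.1, 4.37 and 14.8 CPM in Eed-/- neurons. The 2 genotypes overlapped, and the difference was -0.68 ± 0.92 (log2, SE; edgeR adjusted p = 0.821), within the spread between libraries. The other IFT-A subunits lay at -1.40 ± 0.94 (Ttc21b), -0.30 ± 0.76 (Ift122), 0.03 ± 0.80 (Wdr35), 0.10 ± 0.77 (Ift43) and 0.68 ± 1.06 (Ift140). These differences lay within 2 SEs of 0, and none was detectable with these libraries.

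The largest difference among neurons was that of Crocc, at -3.64 ± 1.08 (edgeR adjusted p = 0.644). It had 8.40 and 148 CPM in Eed+/+ and 4.77, 4.86 and 11.7 CPM in Eed-/- neurons. The value of 148 CPM (51 reads) came from Eed+/+ replicate 2, outside the limits, which also held the most Cep290 of any library (134 CPM), and without that library the Crocc difference was -0.18. All Eed-/- values lay above all Eed+/+ values for 5 genes (Ift52, Ift74, Bbs4, Bbs7 and Mks1, of 30, against 13.3% of all genes) and below them for Ift88 and Ttc21b (2 of 30, against 8.88%). Without Eed+/+ neuron replicate 1, which leaves the poorly aligned replicate as the only control, 7 of 31 genes were called, 4 up and 3 down, where 20.6% of all genes were called.

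The median log2 difference of the 30 genes in neurons was 0.07, against 0.15 for all genes, with 13 below and 17 above 0, where 44.6% of all genes lay below. By block, the median was 0.11 for IFT-B (12 tested), -0.14 for IFT-A (6 tested) and 0.79 for the BBSome block (7 tested, of which 1 was below 0). No block was tested as a group.

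Between the sorted types, taken over both genotypes, no gene of the set was called either. Of 32 tested, 0 were called by edgeR's quasi-likelihood test, against 0.015% of all 13367 genes (2 genes), and 2 had an unadjusted p under 0.05 (6.25% of 32, against 5.51% of all genes). DESeq2 and limma called 0 of the 32. The pair were Ift80, an IFT-B subunit that binds at the periphery of the complex, at -2.95 ± 1.29 (astrocytes over neurons, log2, SE; edgeR adjusted p = 0.762), and Crocc at -2.91 ± 1.23 (edgeR adjusted p = 0.711). Wdr19 lay at -1.36 ± 1.26 (edgeR adjusted p = 1.00), a mean over an Eed+/+ difference that is above 0 (1.15) and Eed-/- astrocytes near 0 reads. No gene of the set had all astrocyte values above or all below the neuron values (0 of 32 in each direction, against 0.00748% and 0.636% of all genes). The median of the 32 was -0.25, against -0.34 for all genes, and which was lower turned with the setting (-0.44 for the set minus all genes with a replicate block).

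**Figure D5:**
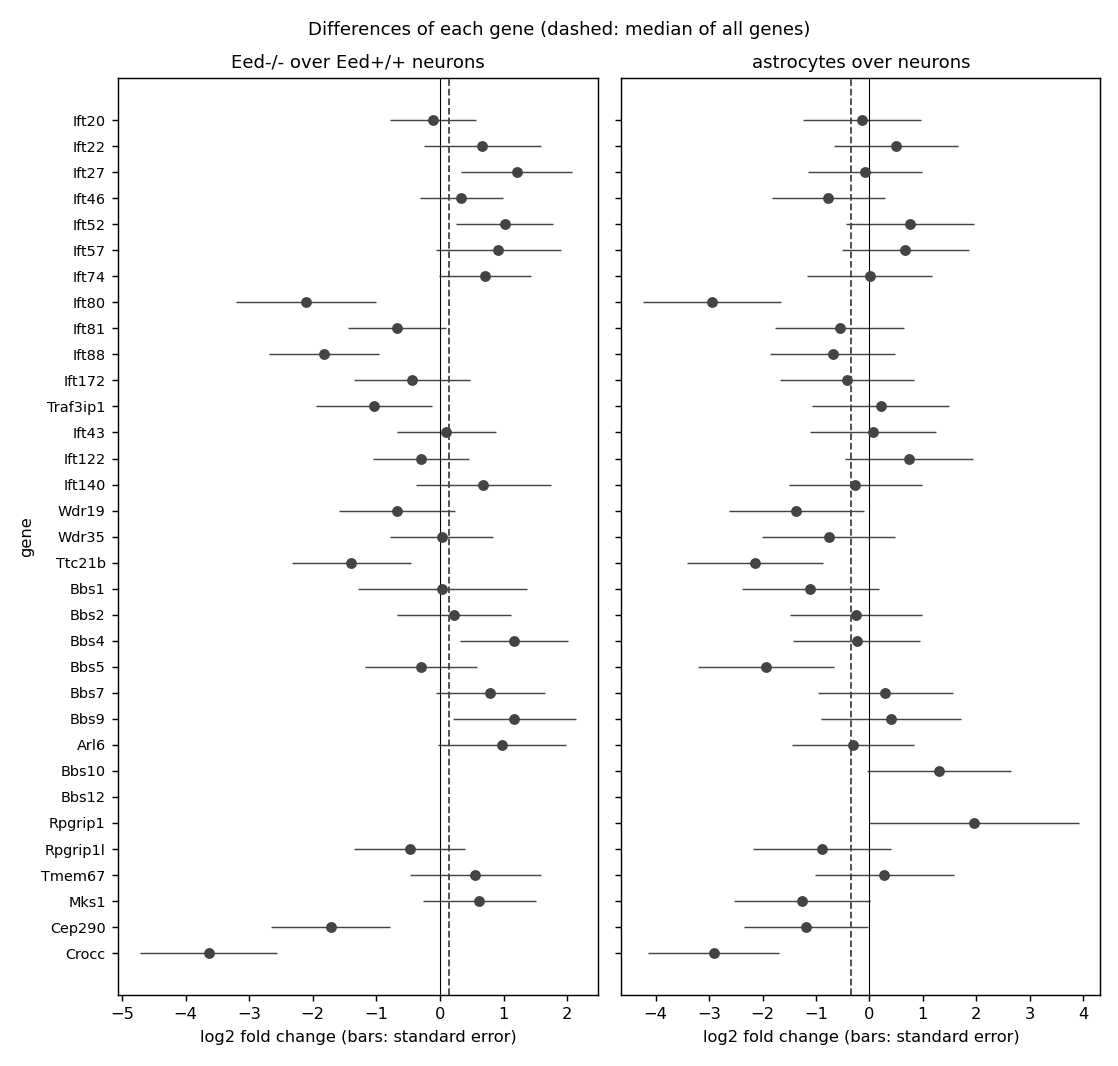
Log2 fold change of each gene with its standard error between Eed-/- and Eed+/+ neurons (left, 30 genes) and between astrocytes and neurons over both genotypes (right, 32 genes). Dashed lines mark the medians of all genes (0.15 and -0.34), and Crocc and Ift80 are the 2 leftmost genes in both panels.

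Whether the genotype difference itself differed between astrocytes and neurons is also a description for this set, since it contains the astrocyte contrast. The difference of differences was -4.92 ± 2.91 for Wdr19 (log2, SE). The 3 values of largest size were above 0 and were named after they were seen: Crocc at 7.78 ± 2.76, Ift88 at 5.82 ± 2.53 and Rpgrip1 at 7.80 ± 3.10. All 3 were above 0 in every fit without 1 library that tested them, but Ift88 was at 2.51 without Eed-/- astrocyte replicate 1, Crocc at 4.43 without Eed+/+ neuron replicate 2 and Rpgrip1 at 4.72 without Eed+/+ neuron replicate 1, and Rpgrip1 was not tested without Eed-/- astrocyte replicate 2 or 5. As background, edgeR called 7 of 13367 genes (0.0524%) and 0 of the 32 of the set, and 483 genes (3.61%), 3 of them of the set, had an unadjusted p under 0.05. DESeq2 and limma called 0 of the 32. Nothing is read from these counts.

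Other genes of the cilium, from 8 lists outside the set, gave no calls in any of these comparisons. Of 86 such genes, 57 were tested in astrocytes, 78 in neurons and 81 between the sorted types, and 0 were called up or down in each. Over all genes tested 0%, 0% and 0.015% were called, so the lack of calls is not particular to these genes. In neurons 1 of the 78 had an unadjusted p under 0.05 above 0 and 3 below, against 7.27% of all genes in both directions. The median difference of the 78 was -0.02, against 0.15 for all genes. The most read gene of each list was given a value. Kifap3, the adaptor of the kinesin-2 motor, had 165 ± 88.7 CPM (SD, n = 5) in Eed+/+ astrocytes and 45.3 ± 71.9 CPM (n = 5) in Eed-/- astrocytes. Hspb11 (IFT25), a further IFT-B subunit, had 23.0 ± 18.6 and 16.7 ± 23.2 CPM, and Bbip1, the small BBSome subunit, 159 ± 60.6 and 87.5 ± 86.0 CPM.

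The remaining leading genes also varied widely among Eed-/- astrocyte libraries. Ahi1, a transition zone gene, had 111 ± 39.0 CPM in Eed+/+ and 36.9 ± 45.8 CPM in Eed-/- astrocytes, and Pcm1, the scaffold of centriolar satellites, 233 ± 137 and 82.7 ± 77.3 CPM. Arl3, a small GTPase that unloads ciliary membrane cargo, had 113 ± 35.9 and 30.7 ± 44.2 CPM, and Gas1, a Hedgehog co-receptor, 149 ± 91.2 and 39.7 ± 46.1 CPM. Rfx4, an RFX factor of neural tissue, had 83.5 ± 55.8 CPM in Eed+/+ and 57.3 ± 69.5 CPM in Eed-/- astrocytes. Within the limits the Eed+/+ and Eed-/- means of these genes were as follows: 104 and 117 CPM for Rfx4 and 28.8 and 41.6 CPM for Hspb11, whose order turned, 187 and 87.4 CPM for Gas1, and 146 and 112 CPM for Kifap3. They were 186 and 151 CPM for Pcm1, 107 and 71.2 CPM for Ahi1, and 113 and 75.6 CPM for Arl3, while for Bbip1 they were 137 and 92.0 CPM. In neurons the same genes had differences between -0.49 ± 0.65 (Rfx4) and 1.50 ± 0.78 (Arl3), with edgeR adjusted p from 0.711 upward. Markers of motile cilia, as on ependymal cells, were sparse: the 20 markers summed to 17.3 to 92.1 CPM in Eed+/+ astrocytes, 22.4 to 68.5 CPM in neurons and 18.9 to 658 CPM in Eed-/- astrocytes. The 658 CPM were those of Eed-/- astrocyte replicate 1, and Tmem212, 1 of the 20, had 0 reads in all labelled libraries.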

How the data were processed

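Sorted neocortical cells of 16 libraries were sequenced after Smart-Seq v2, of which 15 had a group, and the labels of 1 library named both cell types, so it entered no comparison. The authors used STAR and the mouse genome mm10 (GRCm38), per the submitters' processing notes, and deposited raw read counts per gene, neither normalized nor pooled. No source used here names their gene annotation. Reads on the first strand made up 46.7% to 52.7% in the 15 libraries with a group, so the unstranded counts were used. The read totals that name no gene stayed out (in the same libraries 8.55% to 71.6% of uniquely aligned reads fell outside genes, 0.934% to 5.66% were ambiguous). Symbols came from GENCODE mouse release 21 (53274 identifiers matched, 105 did not). No 2 libraries were identical (0 pairs), and 0 columns lacked a sample. Counts were tested with edgeR 4.0.16 (TMM, filterByExpr, robust quasi-likelihood, two-sided, Benjamini-Hochberg over all genes tested, threshold 0.05) in R 4.3.3, without a replicate block, and with DESeq2 1.42.0 and limma 3.58.1 as alternatives. The code was tested on simulated data. CPM are relative to the counts summed over genes, and RPKM are CPM divided by exon length in kilobases. The SE of an edgeR log2 fold change was worked back from its test, as the size of the change divided by the square root of the F statistic. It was not estimated directly and is only a guide for genes at 0 reads in most libraries. Floors are 3 counts. Genes named with a value in every library were Wdr19, the other IFT-A subunits and the most read gene of each other block; from each further cilium list, the most read gene, since none was called. The genes and lists were chosen with earlier results of these data known. Library numbers fell in 2 runs, which enter as alternatives, and the limits on alignment are those the study states for its embryonic libraries. Libraries came from individual animals, and 10 of the 15 lay within the limits. Whether an astrocyte and a neuron library came from the same animal is not known here, and fits without a replicate block treat them as independent.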

Additional observations from a re-analysis of the deposited data

Results flagged for a closer look

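In groups of 5 libraries, 28 sets of values (11 genes and 3 summaries in both astrocyte groups) were searched for a library far from the others by Dixon's test, and 6 were found. Chance gives about 1 in 20, a rate that does not hold where the other 4 libraries are at 0, as for Bbs12 in Eed-/- astrocytes. Ift43 was high in Eed+/+ astrocyte replicate 3, outside the limits (121 CPM), and Bbs12 in Eed+/+ replicate 5 (31.5 CPM). The other 4 were all in Eed-/- astrocyte replicate 5, the 1 Eed-/- astrocyte library in which every gene of the set was read: Ift140 (51.3 CPM), Wdr35 (41.2 CPM), Bbs12 (3.02 CPM, 3 reads, no more than the 3 counts that a count of 0 allows) and Cep290 (53.3 CPM).

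The library without a group held reads of 6 of the 33 genes, and 1 of them lay above every Eed+/+ library: Ift172, an IFT-B subunit, at 745 CPM (165 reads), where the Eed+/+ libraries reached at most 94.2 CPM. Wdr19 had 2 reads (9.03 CPM) there.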

How the results depend on the processing

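No gene of the set was called in the 4 comparisons under TMM, RLE size factors, no filter, a mean count above 10, DESeq2, limma-voom with quality weights, or the libraries within the limits, with these exceptions: 1 (Rpgrip1) with DESeq2 within the limits in astrocytes (added after the data were seen, and no test of the set), and between 0 and 7 when each neuron library was left out, 7 without Eed+/+ neuron replicate 1. Over all genes the number called ranged from 0 to 46 in astrocytes (0 in the setting reported, 46 in 1 fit over all 15 libraries), 0 to 2601 in neurons (0), 0 to 6 between types (2) and 0 to 21 for the difference of differences (7). The median of the set minus that of all genes was -0.37 in astrocytes, from -0.71 to -0.14 when each library was left out but 0.16 with no filter on low counts, 0.13 within the limits (by edgeR and by DESeq2) and 0.057 in the second run of library numbers, and ran from -0.44 to 0.084 for neurons, and for the difference of differences it was -0.46, but 0.19 within the limits. Between types it was 0.086, with 5 settings below 0: -0.44 with a replicate block, -0.14 in Eed-/- groups only, and -0.070, -0.17 and -0.20 without Eed+/+ neuron replicate 1, Eed-/- astrocyte replicate 2 and Eed-/- astrocyte replicate 5. Wdr19 in astrocytes was below 0 in all 20 fits that tested it, from -6.03 to -3.32. The set was chosen on this fall in the same libraries, so the shared sign is a description and no replication. Wdr19 lost its place in the test, through the filter on low counts, in 3 of the 10 fits without 1 library. Between types, Wdr19 turned to 1.15 in Eed+/+ groups only and Crocc to 0.99 in Eed-/- groups only. Mean genes read per Eed-/- neuron library moved from 32.3 to 29.1 at equal depth. Same-numbered libraries deviated together little (r from -0.24 to 0.15, both across genotypes). Between astrocytes and neurons of the same genotype and number, r ran from -0.050 to 0.12. Of the libraries compared, 1 of 5 correlated best with its own number. A replicate block called 0 of the set in all 4 comparisons, with the astrocyte median at -0.45 relative to all genes. Depth limits the lowest level that can be seen: 3 counts are 14.2 CPM in the smallest library.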
